A study of Danio rerio with 6 samples.

Results

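The 3p arms of the miR-430 family are the strands of this microRNA family that carry its targeting sequence. They were found by name as 4 of the 134 mature microRNAs in the count table, namely miR-430a-3p, miR-430b-3p, miR-430c-3p and miR-430i-3p. The libraries came from primordial germ cells, the embryonic precursors of eggs and sperm. These were taken from zebrafish embryos (strain AB) and recognised by their green fluorescence. There were 3 groups with 2 libraries each, at 6 hours post fertilization (hpf, the shield stage), 11 hpf (the 3-somite stage) and 24 hpf (the prim-5 stage). All 6 libraries share strain, cell type and a small RNA library method for very small inputs, and no treatment or mutation is named. What makes the cells green, the number of embryos behind a library and whether replicates came from separate collections are not given in the labels. Spread between replicates may therefore be technical. The labels call the tissue gonad, but proteins and messenger RNAs that define germ cells were not measured, and neither arm of the gonad microRNA miR-202 had a row in the table.

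A microRNA guides an Argonaute protein to messenger RNAs through its seed, the bases 2 to 8 from the 5′ end. In the zebrafish embryo miR-430 is switched on when the zygotic genome becomes active, and it marks many maternally supplied messenger RNAs for deadenylation and decay. In germ cells some of its targets, among them nanos3 and tdrd7, escape this repression, and the RNA-binding protein Dead end is known to block access to their miR-430 sites.

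The sequences below show what the members share and where they differ, written as DNA in the 5′ to 3′ direction with the seed in capitals.
miR-430a-3p: tAAGTGCTatttgttggggtag
miR-430b-3p: aAAGTGCTatcaagttggggtag
miR-430c-3p: tAAGTGCTtctctttggggtag
miR-430i-3p: tAAGTGCTatttgttggcgtag

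All 4 members carried the seed AAGTGCT, whose reverse complement, AGCACTT, is the match a target would hold. No other listed microRNA had this seed. Counted from the 5′ end, miR-430i-3p differed from miR-430a-3p by 1 substitution, G18C. miR-430c-3p differed from miR-430a-3p by 4 substitutions, A9T, T10C, T12C and G13T, all directly 3′ of the seed. miR-430b-3p was 23 bases long where the others had 22, and its edit distance to miR-430a-3p was 4. From base 2 on, the first 3 members shared the seed and their 3′ ends and differed in between, while miR-430b-3p also had another first base. A single base separates a read of miR-430i-3p from one of miR-430a-3p. The sources used here do not say how the authors counted reads that fit more than 1 name.

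In the RefSeq annotation of the assembly GRCz12tu, which is not the build named for these data, 58 genes bore miR-430 names. They comprised 18 of type a, 19 of type b, 18 of type c and 3 of type i. All but 1 of them, 57, lay on a single chromosome, and 45 of the 56 consecutive pairs joined 2 different types. The annotated copy numbers of types a, b and c were thus nearly equal, which the read counts of their 3p arms were not.

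miR-430a-3p was the most abundant microRNA in every library. With replicate 1 given first, its reads numbered 17231 and 31205 at 6 hpf, then 22375 and 25819 at 11 hpf, then 32890 and 35679 at 24 hpf. As a share of all microRNA reads this was 48.2% and 48.9% at 6 hpf, 49.4% and 53.6% at 11 hpf, and 49.2% and 45.2% at 24 hpf. On this base its share lay between 45.2% and 53.6%. The highest value came from an 11 hpf library and the lowest from a 24 hpf library. At both of these stages the replicates differed by more than their 95% Wilson intervals, which cover counting error only. The 11 hpf libraries lay above the 6 hpf libraries only narrowly, since the interval of 11 hpf replicate 1 (48.9% to 49.8%) overlapped that of 6 hpf replicate 2 (48.5% to 49.3%). The 24 hpf libraries lay below the 11 hpf libraries as narrowly, since the interval of 24 hpf replicate 1 (48.8% to 49.6%) overlapped that of 11 hpf replicate 1 (48.9% to 49.8%). The 24 and 6 hpf libraries overlapped.

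miR-430b-3p was second in every library and moved more with stage. Its reads numbered 7625 and 14711 at 6 hpf, 12601 and 13156 at 11 hpf, and 13939 and 13419 at 24 hpf. The share it held was 21.3% and 23.0% at 6 hpf, 27.8% and 27.3% at 11 hpf, and 20.8% and 17.0% at 24 hpf. The stages did not overlap: 11 hpf was highest and 24 hpf lowest. The gap between 24 and 6 hpf was within counting error for replicate 1 of each, whose Wilson intervals were 20.5% to 21.2% at 24 hpf and 20.9% to 21.8% at 6 hpf. The 11 hpf mean was 1.24 times the 6 hpf mean, and the 24 hpf mean was 0.687 times the 11 hpf mean.

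miR-430c-3p was far scarcer, ranking between 6 and 14 among the microRNAs of a library. It had 128 and 254 reads at 6 hpf, 272 and 386 at 11 hpf, and 565 and 437 at 24 hpf. Its share was 0.358% and 0.398% at 6 hpf, 0.600% and 0.801% at 11 hpf, and 0.845% and 0.553% at 24 hpf. Both later stages lay above 6 hpf without overlap, by factors of 1.85 in each mean, while 24 and 11 hpf overlapped widely and had means of 0.699% and 0.701%.

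miR-430i-3p was at the edge of detection. Neither 6 hpf library had a read of it, 1 of the 11 hpf libraries had 1 read, and each 24 hpf library had 1 read. A count of 0, with a floor of 3 reads, allowed a share of up to 0.00840% and 0.00470% in the 6 hpf libraries and 0.00622% in 11 hpf replicate 2. The upper limits of the 95% Wilson intervals drawn in the plot of shares are wider, at 0.0108%, 0.00602% and 0.00797% for the same libraries. No difference between stages was detectable at this depth, and the member failed the filter for the test across microRNAs. Summed over the libraries, the i form made up 0.00182% of the reads assigned to miR-430a-3p or miR-430i-3p (3 of 165202, Wilson 95% interval 0.000618% to 0.00534%). For the 5p arms, the opposite strands of the same hairpins, the i form made up 90.6% of the reads assigned to miR-430a-5p or miR-430i-5p (22114 of 24414, Wilson 95% interval 90.2% to 90.9%). Across libraries that 5p value ranged from 86.8% to 92.2%, against 0% to 0.00447% for the 3p arms. By assigned name, the type with 3 annotated genes held most of these 5p reads and almost none of the 3p reads. Whether this split comes from how reads that fit more than 1 name were assigned was not tested.

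**Figure D1:**
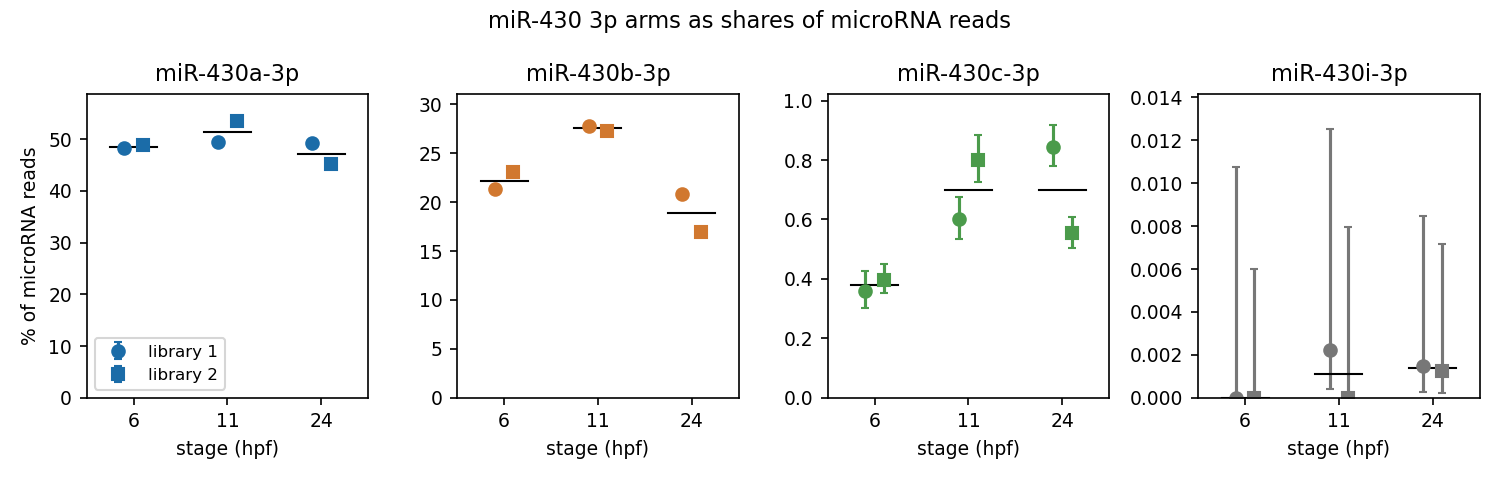
Share of microRNA reads (y axis, percent, from 0 on a separate scale for each member) of miR-430a-3p, miR-430b-3p, miR-430c-3p and miR-430i-3p at 6, 11 and 24 hpf (x axis); circles are replicate 1, squares replicate 2, bars 95% Wilson intervals (counting error only, hidden by the points for the first 2 members) and black lines the means of 2 libraries. miR-430a-3p stays between 45.2% and 53.6%, miR-430b-3p is highest at 11 hpf, and both miR-430c-3p values at 11 and at 24 hpf lie above those at 6 hpf.

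Over miR-430a-3p, miR-430b-3p and miR-430c-3p at the 3 stages, the Wilson intervals of the 2 replicates were apart in 6 of 9 cases. In those cases replicates differed by more than these intervals allow. The intervals take each read as an independent molecule, which PCR copies are not. In these bulk libraries fewer cells of a type and less RNA per cell cannot be told apart. With 2 against 2 libraries an exact two-sided permutation test cannot go below p = 0.33, and every comparison of shares without overlap gave this value. Of the 3 members that passed the filter, 3 had no overlap between 11 and 6 hpf, all with 11 hpf above, while 46.4% of the 69 tested microRNAs had none in either direction. Between 24 and 11 hpf it was 2 of 3, both with 24 hpf below, beside 42% of the tested microRNAs. Between 24 and 6 hpf it was also 2 of 3, with miR-430b-3p lower and miR-430c-3p higher at 24 hpf, beside 58%. Split by direction, 25 of the 69 lay above and 7 below at 11 against 6 hpf. At 24 against 11 hpf 24 lay above and 5 below, and at 24 against 6 hpf 33 above and 7 below. Those counts include the members.

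Together the members held most microRNA reads of each library. The summed 3p share was 69.9% and 72.3% at 6 hpf, 77.8% and 81.7% at 11 hpf, and 70.9% and 62.7% at 24 hpf. What it was measured against mattered, because the 5p arms of the family moved as well. For each 5p read there were 3.96 and 3.96 reads of the 3p arms at 6 hpf, 32.7 and 27.4 at 11 hpf, and 25.4 and 23.1 at 24 hpf. With the 5p arms left out of the total, the 3p share was 84.9% and 88.5% at 6 hpf, 79.7% and 84.2% at 11 hpf, and 72.9% and 64.5% at 24 hpf. On that base the stages still did not overlap (exact two-sided permutation p = 0.33 for each pair), but 6 hpf and not 11 hpf was the highest. The reads of the 3p arms per read from outside the family numbered 5.64 and 7.68 at 6 hpf, 3.92 and 5.32 at 11 hpf, and 2.69 and 1.81 at 24 hpf. This ratio is another form of the 3p share with the 5p arms left out, so it had to keep that order and lack of overlap. It was lower at each later stage (exact two-sided permutation p = 0.33 for each pair) and was computed after the values had been seen. At 24 hpf its mean was 0.338 times that at 6 hpf.

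Leaving out the 5p arms rescales the shares of all members of a library by the same factor. Whether a member kept its direction or overlap between stages therefore depended on the differences it had before. With the 5p arms left out, miR-430a-3p averaged 52.9% ± 3.27 at 11 hpf against 59.2% ± 0.86 at 6 hpf (SD, n = 2 each), without overlap, the opposite direction to its share of all microRNA reads. miR-430b-3p averaged 28.3% ± 0.25 at 11 hpf against 27.1% ± 1.61 at 6 hpf (SD, n = 2 each), with overlap. miR-430c-3p averaged 0.720% ± 0.15 at 11 hpf against 0.461% ± 0.036 at 6 hpf (SD, n = 2 each), still without overlap and in the same direction. At 24 hpf miR-430a-3p averaged 48.5% ± 2.94 on this base (SD, n = 2), below 6 hpf without overlap, where its share of all microRNA reads had overlapped. It now overlapped with 11 hpf, where its share of all microRNA reads had not. miR-430b-3p stayed below both earlier stages at 24 hpf, with 19.5% ± 2.81 (SD, n = 2).

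**Figure D2:**
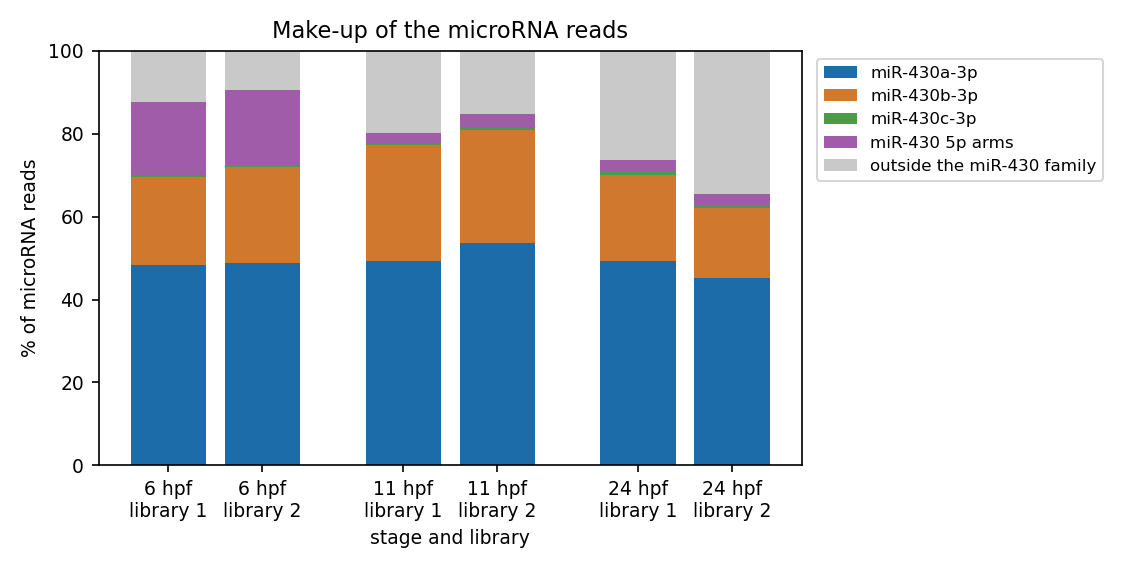
Make-up of the microRNA reads of each library (y axis, percent, stacked bars from 0 to 100; x axis, stage and replicate), split into miR-430a-3p, miR-430b-3p, miR-430c-3p, the 5p arms of miR-430 and microRNAs outside the family; miR-430i-3p is too rare to be drawn. The 5p arms hold 17.7% and 18.3% at 6 hpf and between 2.38% and 2.98% later, while the part outside the family is 12.4% and 9.41% at 6 hpf, 19.8% and 15.4% at 11 hpf, and 26.3% and 34.6% at 24 hpf.

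Ratios between members within a library need no scaling of libraries and no choice of base. For every 100 reads of miR-430a-3p there were 44.3 and 47.1 reads of miR-430b-3p at 6 hpf, 56.3 and 51.0 at 11 hpf, and 42.4 and 37.6 at 24 hpf. The stages did not overlap, with 11 hpf highest and 24 hpf lowest. On the log2 scale the b-to-a ratio averaged -1.32 ± 0.12 at 24 hpf against -0.90 ± 0.10 at 11 hpf (SD, n = 2 each), a difference of -0.42. The difference was 0.23 between 11 and 6 hpf, and between 24 and 6 hpf it was -0.19. Each gave the smallest exact two-sided permutation p that 2 against 2 libraries allow, 0.33.

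For miR-430c-3p there were 0.743 and 0.814 reads per 100 reads of miR-430a-3p at 6 hpf, 1.22 and 1.495 at 11 hpf, and 1.72 and 1.22 at 24 hpf. Both later stages lay above 6 hpf, and they overlapped with each other. The log2 difference of this c-to-a ratio was 0.79 between 11 and 6 hpf and 0.90 between 24 and 6 hpf (exact two-sided permutation p = 0.33 for both). Between 24 and 11 hpf it was 0.11 (exact two-sided permutation p = 0.67), and its sign changed when replicate 1 of either stage was left out (-0.044 without that of 11 hpf, -0.14 without that of 24 hpf). Against miR-430b-3p, the scarcer member had 1.68 and 1.73 reads per 100 at 6 hpf, 2.16 and 2.93 at 11 hpf, and 4.05 and 3.26 at 24 hpf. That c-to-b ratio was higher at each later stage without overlap, and the log2 difference between 24 and 6 hpf was 1.09. This ratio was computed after the values had been seen, and its exact two-sided permutation p was 0.33 in each comparison, the smallest the design allows.

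**Figure D3:**
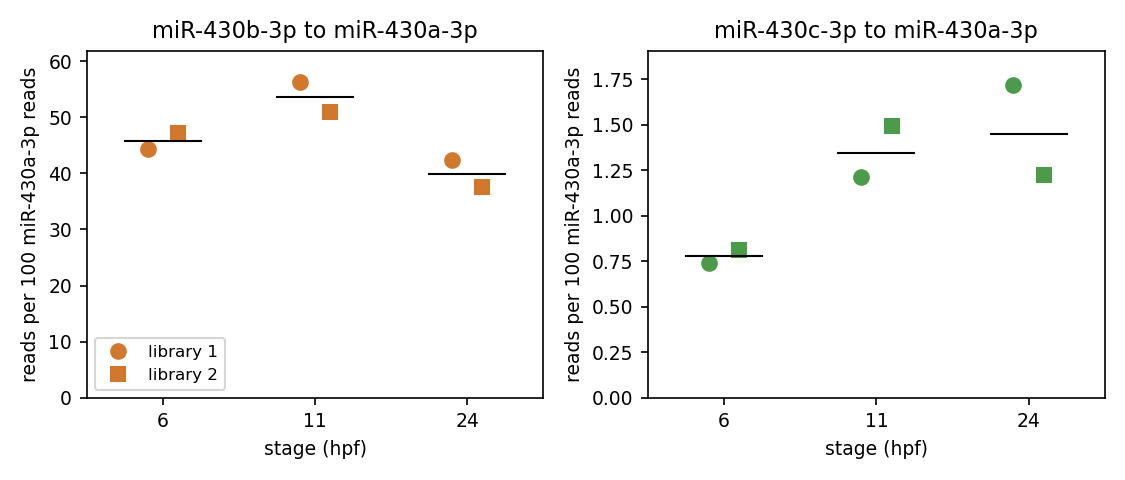
Reads of miR-430b-3p (left) and miR-430c-3p (right) per 100 reads of miR-430a-3p in the same library (y axes, linear from 0) at 6, 11 and 24 hpf (x axes); circles are replicate 1, squares replicate 2 and lines the geometric mean of 2 libraries. The b-to-a ratio runs from 37.6 to 56.3 and is highest at 11 hpf, while the c-to-a ratio is 0.743 and 0.814 at 6 hpf and at least 1.22 in every later library.

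In edgeR's quasi-likelihood test across 69 microRNAs, no member passed an adjusted p of 0.05 in any comparison of stages. Between 11 and 6 hpf, where 5.8% of the tested microRNAs passed, the log2 differences were -0.60 (SE 0.31) for miR-430a-3p, -0.38 (SE 0.36) for miR-430b-3p and 0.20 (SE 0.49) for miR-430c-3p. The edgeR adjusted p-values were 0.52, 0.69 and 0.85. Between 24 and 11 hpf 0 of 69, or 0%, passed, with 14 at an unadjusted p under 0.05 and 3 called by DESeq2. There miR-430b-3p had the largest difference of the members, -0.96 (SE 0.36, edgeR adjusted p = 0.25), beside -0.56 (SE 0.31) for miR-430a-3p and -0.41 (SE 0.49) for miR-430c-3p.

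Between 24 and 6 hpf 17.4% of the tested microRNAs passed, a number that ran from 0 to 28 of 69 when single libraries were left out. miR-430a-3p stood at -1.15 (SE 0.31) and miR-430b-3p at -1.34 (SE 0.36), both with an edgeR adjusted p of 0.072, and miR-430c-3p at -0.20 (SE 0.49, edgeR adjusted p = 0.77). The unadjusted p-values of the first 2 were 0.020 and 0.019. Without 6 hpf replicate 2 the differences were -0.57 for miR-430a-3p and -0.72 for miR-430b-3p, and with single libraries left out they ran from -1.40 to -0.57 and from -1.62 to -0.72. Over the 15 alternative settings of this comparison, the adjusted p ran from 0.051 to 0.93 for miR-430a-3p and from 0.051 to 0.93 for miR-430b-3p, and neither was called in any. Summarised as a list, the 3 tested members had a median log2 difference of -1.15 between 24 and 6 hpf, -0.56 between 24 and 11 hpf and -0.38 between 11 and 6 hpf. The medians of all 69 were -0.36, -0.083 and -0.079. Each median of the members is the value of a single member, miR-430a-3p in both comparisons with 24 hpf and miR-430b-3p between 11 and 6 hpf. It does not describe all members. miR-430c-3p lay above the median of all 69 in both comparisons with 6 hpf, and below it between 24 and 11 hpf.

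These differences depended on how libraries were scaled. Between 24 and 6 hpf miR-430a-3p ran from -1.15 with the default scaling (TMM) to 0.090 with the authors' library totals. The median of all tested microRNAs moved with it, from -0.36 to 0.88. So did the split of all calls in that comparison, with 6 higher and 6 lower by default, 12 higher and 4 lower with library size only, and 15 higher and 4 lower with the authors' totals. At 11 against 6 hpf the default gave 1 higher and 3 lower, RLE 2 higher and 3 lower, library size only 2 higher and 2 lower, and the authors' totals 1 higher and 0 lower. Values relative to the median of all tested microRNAs were then taken under the 5 scalings. Between 24 and 6 hpf they were -0.80 to -0.77 for miR-430a-3p, -0.99 to -0.96 for miR-430b-3p and 0.14 to 0.18 for miR-430c-3p. Between 24 and 11 hpf the relative values were -0.47 to -0.38 for miR-430a-3p, -0.87 to -0.77 for miR-430b-3p and -0.32 to -0.27 for miR-430c-3p. Between 11 and 6 hpf they were -0.52 to -0.31, -0.30 to -0.11 and 0.28 to 0.52 for the same members. Under every scaling miR-430a-3p and miR-430b-3p thus lay below the median of the tested microRNAs, and miR-430c-3p lay above it in both comparisons with 6 hpf. That position of miR-430c-3p did not hold under other settings between 24 and 6 hpf: relative to the median it stood at -0.39 with no filter, -0.058 with the stricter filter and -0.047 with the replicate block.

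**Figure D4:**
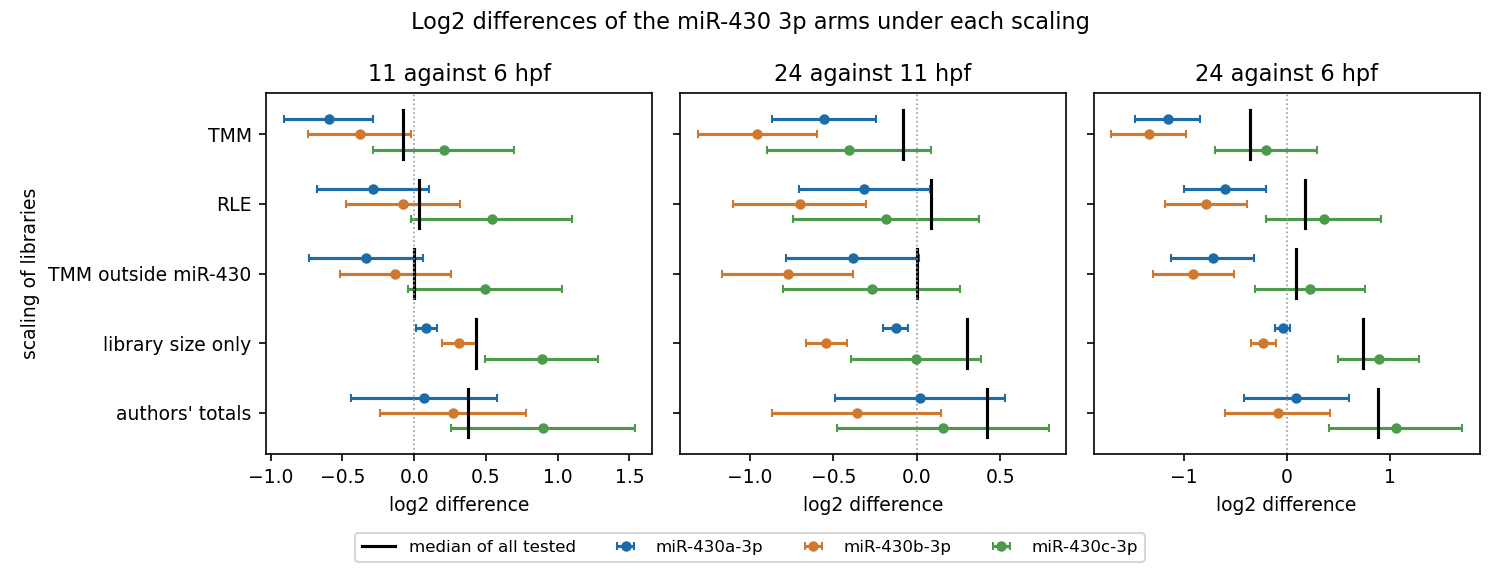
Log2 differences (x axes; dots with bars of 1 SE, edgeR) of miR-430a-3p, miR-430b-3p and miR-430c-3p in the 3 comparisons of stages, under 5 scalings of the libraries (y axis), with a black line at the median of all 69 tested microRNAs; x axes differ in range. Dots and lines shift together between scalings: between 24 and 6 hpf miR-430a-3p runs from -1.15 to 0.090, while its distance from the median stays between -0.80 and -0.77. A change of scaling shifts all microRNAs of a fit nearly alike, so this distance could hardly change.

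On the authors' RPM scale, which relates reads to a library total of 9019179 to 21230244 reads, the replicates of every stage lay far apart. miR-430a-3p had 1644 and 2574 RPM at 6 hpf, 1566 and 2863 at 11 hpf, and 2808 and 1681 at 24 hpf. miR-430b-3p had 727 and 1213 RPM at 6 hpf, 882 and 1459 at 11 hpf, and 1190 and 632 at 24 hpf. miR-430c-3p had 12.2 and 20.9 RPM at 6 hpf, 19.0 and 42.8 at 11 hpf, and 48.2 and 20.6 at 24 hpf. For these 3 members all stages overlapped on this scale. In each library pair the same replicate was high for all 3, and microRNA reads as a whole moved with them, from 0.317% to 0.571% of the authors' totals.

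microRNAs outside the family with a related seed were rare. The 6 bases AAGTGC, which the members hold from base 2, began at base 3 in miR-17a-5p and miR-20a-5p of the miR-17 family, a group known for driving cell proliferation. The shared bases are in capitals.
miR-17a-5p: caAAGTGCttacagtgcaggta
miR-20a-5p: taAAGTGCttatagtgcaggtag

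miR-20a-5p had 28 and 34 reads at 6 hpf, 198 and 53 at 11 hpf, and 202 and 326 at 24 hpf. Both later stages lay above 6 hpf, and the 11 hpf replicates differed widely. miR-17a-5p had no reads before 24 hpf and 15 and 1 there. Both together reached at most 0.437% of microRNA reads in any library, against at least 62.7% for the miR-430 3p arms. In a list of the miR-17, miR-18, miR-19, miR-20, miR-93 and miR-106 microRNAs, 6 were present in the table and 2 were tested, miR-19b-3p and miR-20a-5p. Neither passed edgeR's test in any comparison of stages, with miR-20a-5p at 1.33 (SE 0.66, edgeR adjusted p = 0.21) and miR-19b-3p at 0.15 (SE 0.38, edgeR adjusted p = 0.79) between 24 and 6 hpf. Of the miR-430 5p arms, all 3 were tested. Of these, miR-430i-5p and miR-430a-5p, 2 of 3, were called lower at 11 than at 6 hpf, where 5.8% of the tested microRNAs were called. The same 2 were called lower at 24 than at 6 hpf, where 17.4% were called. For miR-430i-5p the log2 differences were -3.44 (edgeR adjusted p = 0.017) and -3.86 (edgeR adjusted p = 0.0094). Between 24 and 11 hpf miR-430i-5p stood at -0.42 and miR-430a-5p at -0.30, neither called. At 11 against 6 hpf no microRNA was called lower with the authors' totals, and none was called with the 2 stages alone.

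The profile most like that of each member was sought by the root mean square difference of centred log2 values, log2(RPM of microRNA reads + 1), over the 6 libraries. miR-430a-3p and miR-430b-3p were closest to each other, at 0.19, while miR-430c-3p stood at 0.44 from the first and 0.47 from the second. Together miR-430a-3p and miR-430b-3p held most of the reads these values are shares of, which limits how far either could rise. Outside the family, miR-34a came nearest to both miR-430a-3p (0.29) and miR-430b-3p (0.24). It was followed by miR-145-3p (0.33) and miR-199-5p (0.38) for miR-430a-3p, and by miR-99 (0.35) and miR-145-3p (0.37) for miR-430b-3p. For miR-430c-3p the nearest were miR-30e-5p (0.26), miR-30b (0.38) and miR-25-3p (0.41). The median distance of the tested microRNAs outside the family was 1.23, 1.27 and 1.36 for members a, b and c. Small distances for miR-34a, miR-145-3p and miR-30e-5p rest on few reads, with all 3 between 0.0094% and 0.0243% of microRNA reads in every library.

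microRNA reads numbered between 35718 and 78973 per library, and between 71 and 100 microRNAs had at least 1 read. From lists of microRNAs typical of muscle, nerve, blood and vessels, epithelium, sensory organs, mesenchyme and liver, 21 had a row. Summed, they held 1.25% to 1.59% of microRNA reads at 24 hpf, 0.672% to 1.38% at 11 hpf and 0.725% to 0.941% at 6 hpf. The mesenchyme list made up most of this. The base mattered here as well. At 6 hpf the listed markers had 336 and 463 reads, beside 4429 and 6008 reads from outside the family. At 24 hpf they had 836 and 1254, beside 17602 and 27293. As a share of the reads outside the family they were thus lower at 24 than at 6 hpf. Sensory organ microRNAs held 0.262% to 0.409% at 24 hpf against at most 0.00313% at 6 hpf. The muscle and neural lists were also higher at 24 than at 6 hpf, each on narrow grounds. Of the neural list, 24 hpf replicate 1 held 58 reads but replicate 2 only 2, below the floor of 3. The 6 hpf libraries held 0 and 1. The muscle rise lay in miR-206-3p, without a read in either 6 hpf library and counted 51 and 50 times at 24 hpf. The other muscle name with a row, miR-1, overlapped, with 8 and 27 at 24 hpf against 10 in each 6 hpf library. The epithelium list went the other way, with 0.0228% to 0.0284% at 24 hpf against 0.0504% to 0.0924% at 6 hpf. For the mesenchyme, blood and vessel, and liver lists these stages overlapped. The part of these lists in the differences of the 3p shares was not tested. Some listed markers had reads in every library, with 155 to 366 of miR-143 and 95 to 178 of miR-199-5p (mesenchyme), 6 to 58 of miR-126a-3p (vessels) and 8 to 27 of miR-1 (muscle). The epithelial miR-200b-3p had 3 to 56. Other members of these lists did not. Only 2 of 5 muscle names had a row, and miR-206-3p was at 0 reads in 3 libraries. Of 8 blood and vessel names 3 had a row, and miR-126b-5p was at 0 reads in 3 libraries. Of 8 epithelium names 3 had a row, and miR-429a was at 0 reads in 4 libraries. All 6 mesenchyme names had a row, with miR-140-5p at 0 reads in 2 libraries. The neural miR-9-5p had 1 to 18 reads in 5 of 6 libraries. Others were at 0 reads in 5 of 6 libraries: the neural miR-124-3p and miR-153a-3p, with 32 and 8 reads in 24 hpf replicate 1, and the liver miR-122, with 15 reads in 6 hpf replicate 1.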

How the data were processed

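Small RNA reads were deposited by the authors as whole-number counts per mature microRNA, together with RPM values that the authors computed. These RPM values equal the count times 1 constant per library, and the sources used here do not say which reads its total covers. Bowtie 1.0.0-5 and the build danRer11 stand in the submitters' processing notes. Sequences were taken from the deposited table.

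The counts were tested as deposited with edgeR 4.0.16 in R 4.3.3 on all microRNAs that passed filterByExpr (minimum count 10), which were 69 of 134, with TMM scaling, stage as the only term and all 6 libraries. An adjusted p (Benjamini-Hochberg over the 69) under 0.05 was called. The SE is the difference divided by the square root of F. The code was checked on simulated counts. Shares and ratios were compared by exact permutation tests in SciPy 1.17.1. Alternatives were RLE, library size only, the authors' totals, DESeq2 1.42.0, TMM over microRNAs outside the family, a stricter filter (a mean of 100 reads in a stage), none at all, the replicate number as a block, fits of 2 stages, and each library left out. Named were the members, their 5p arms, seed relatives, the 3 nearest profiles per tested member and the miR-17 list. Members and lists were chosen with earlier results of these data known. The c-to-b ratio and the ratio to reads outside the family were added after the values had been seen. Intervals and floors cover counting error only, since PCR copies are not independent molecules. Figures were drawn with matplotlib 3.10.9.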

Additional observations from a re-analysis of the deposited data

How the results depend on the processing

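No setting called a member in any comparison, so sign and size are what the settings changed, and the cause of each change was not tested. Between 11 and 6 hpf, miR-430a-3p turned to 0.084 with library size only, 0.070 with the authors' totals and 0.024 with the stricter filter. miR-430b-3p turned to 0.31, 0.27 and 0.24 in the same settings and ran from -0.66 to 0.18 with a library left out, above 0 without 6 hpf replicate 2. miR-430c-3p ran from -0.22 to 0.83 with a library left out, below 0 without 11 hpf replicate 2 and without 6 hpf replicate 1. Between 24 and 11 hpf, the authors' totals turned miR-430a-3p to 0.019 and miR-430c-3p to 0.15. With a library left out miR-430c-3p ran from -0.80 to 0.030, above 0 without 24 hpf replicate 2 and without 11 hpf replicate 2. Between 24 and 6 hpf, miR-430a-3p turned to 0.090 with the authors' totals. miR-430c-3p turned to 0.35 with RLE and with DESeq2, to 0.89 with library size only, to 1.05 with the authors' totals, to 0.22 when scaled outside the family and to 0.65 with the stricter filter. It ran from -0.60 to 0.41 with a library left out, above 0 without 24 hpf replicate 2 and without 6 hpf replicate 2.

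As log2 ratios of mean shares, the summed 3p share turned to -0.082 between 11 and 6 hpf (0.16 in the report's form) and that of miR-430a-3p to -0.16 (0.084) when the 5p arms were left out of the total. With the authors' totals, the summed share turned to 0.043 and that of miR-430a-3p to 0.090 between 24 and 6 hpf, and between 24 and 11 hpf miR-430a-3p turned to 0.019 and miR-430c-3p to 0.15. With a library left out, miR-430a-3p ran from -0.10 to 0.019 between 24 and 6 hpf, and miR-430c-3p from -0.34 to 0.27 between 24 and 11 hpf. The c-to-a ratio ran from -0.14 to 0.35 between 24 and 11 hpf. The miR-430b-3p share kept its direction in all settings run. So did the b-to-a ratio, but its settings could hardly have reversed it. Adding 1 to each count, or counting the few miR-430i-3p reads as miR-430a-3p, barely changes either ratio, and both kept their direction. For the b-to-a ratio and the miR-430b-3p share the stages did not overlap, so leaving out a library could not reverse them. Between 11 and 6 hpf the miR-430b-3p share differed by 0.31, or by 0.065 with the 5p arms left out, where libraries overlapped. The default edgeR fit gave the opposite sign for this member there, -0.38.

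Counts of all microRNAs called moved as well. Between 11 and 6 hpf (4 in the report) they were 1 with the authors' totals, 7 with DESeq2, 0 with the 2 stages alone and 0 to 3 with a library left out. Between 24 and 11 hpf (0) they were 8 with RLE, 3 with the authors' totals, 3 with DESeq2 and 1 with the stricter filter. Between 24 and 6 hpf (12) they were 19 with the authors' totals, 5 without a filter, 28 with the 2 stages alone and 0 to 28 with a library left out: 4 and 0 without replicate 1 or 2 of 6 hpf, 28 and 24 without those of 11 hpf, and 2 and 1 without those of 24 hpf. In the comparison of 11 with 6 hpf the 0 came without 6 hpf replicate 2, and 2 were called without 11 hpf replicate 1 or 24 hpf replicate 1. With the replicate block, 3, 0 and 4 were called, and miR-430b-3p stood at -1.34 (edgeR adjusted p = 0.18) between 24 and 6 hpf. Deviations of libraries with the same replicate number correlated over microRNAs at 0.14 (6 and 11 hpf), 0.057 (6 and 24 hpf) and -0.24 (11 and 24 hpf). With 2 libraries per stage this cannot tell whether same-numbered libraries share a collection or batch.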
